A study of Mus musculus with 14 samples.

Results

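Loss of Tet1 was examined in mouse embryonic stem cells that already lacked the DNA methyltransferases. The comparison set 2 libraries of Tet1-KO Dnmt-TKO cells against 2 libraries of Dnmt-TKO cells, and its members were all genes that passed a filter on low counts in these 4 libraries: 16089 of the 37991 gene identifiers in the deposited table. Every line was of the J1 129S4/SvJae background and was untreated in this experiment. Dnmt-TKO denotes triple knockout of Dnmt1, Dnmt3a and Dnmt3b, and both groups carried it, so that they differ by label only in Tet1. A further group of 2 untreated wild-type libraries from the same table entered the model and is given for reference. The labels do not say whether the 2 libraries of a genotype came from separate cultures or clones, nor how the Tet1 knockout was made. The p-values therefore measure the spread between these libraries, which may be technical, and a difference between lines cannot be told apart from one due to Tet1. The series holds 14 libraries of such cells in all, 8 of them from a separate experiment with vehicle or the PRC1 inhibitor PRT4165.

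TET1 is a dioxygenase that oxidises 5-methylcytosine to 5-hydroxymethylcytosine and further products, the entry to DNA demethylation. It also sits at CpG-rich promoters with partners such as the SIN3A co-repressor and the O-GlcNAc transferase OGT, which gives it roles that need no catalysis. Embryonic stem cells without DNMT1, DNMT3A and DNMT3B survive and keep renewing although their genome holds almost no cytosine methylation, and many germline genes are active in them. Comparing Tet1 loss on this background with the same background alone asks which transcripts depend on Tet1 where its substrate is largely missing.

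The libraries held between 30071029 and 41844823 counts in the groups compared, and 23354015 and 28043647 in the wild type. Mitochondrially encoded genes took 5.36 and 5.59% of counts in Dnmt-TKO and 5.87 and 6.79% in Tet1-KO Dnmt-TKO. Libraries of one genotype correlated at 0.991 to 0.994 across genes on the log2 CPM scale. The wild-type libraries differed from the others on the Y chromosome: 7 Y-linked genes summed to 7.76 and 8.53 CPM there and to between 265 and 309 CPM in the 4 knockout libraries, so the wild type serves below only as a reference level. Levels are counts scaled to library size (CPM) after TMM scaling, and changes are log2 differences, Tet1-KO Dnmt-TKO minus Dnmt-TKO, with the standard error (SE) of the fit on 2 libraries a group.

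Tet1 itself stood at 789 and 739 CPM in Dnmt-TKO, at 134 and 200 CPM in Tet1-KO Dnmt-TKO, and at 596 and 533 CPM in wild type. The fall was 4.58-fold (log2 -2.19 ± 0.16 SE, adjusted p = 1.2e-05), and reads of Tet1 remained in both knockout libraries. The table counts whole genes, so whether those reads come from outside the disrupted part was not tested. Dnmt1 did not pass the test, with 117 and 128 CPM in Dnmt-TKO against 116 and 118 CPM with Tet1 loss (log2 -0.06 ± 0.12, adjusted p = 0.76). Dnmt3b stood at 36.3 and 40.9 against 44.1 and 51.0 CPM (log2 0.30 ± 0.11, adjusted p = 0.075), and was called as a rise with a replicate block (adjusted p = 0.0301) and without wild-type replicate 1 (0.0477). Dnmt3a, whose disrupted transcript remained detectable, fell from 37.9 and 37.3 to 15 and 21.5 CPM (log2 -1.04 ± 0.15, adjusted p = 0.00072), and its exons overlap the antisense gene Dnmt3aos. The counting was not stated to use strand, so reads of such overlapping pairs cannot be told apart. The same holds for Tet2 with Gm42567, Tdg with Glt8d2, Dnmt3l with Aire, Sycp3 with Chpt1, Tdrd5 with 4930518J20Rik and Pou5f1 with Gm19553.

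Of 30 tested genes of methylation and demethylation, Tet1 and Dnmt3a included, 5 rose (16.7%) and 4 fell (13.3%), with 2 falls without either TKO replicate or without Tet1-KO TKO replicate 1. Over all genes 11.7% rose and 10.6% fell. Tet2, a related dioxygenase, fell by 0.37 ± 0.11 on the log2 scale (adjusted p = 0.036), but that call was lost without TKO replicate 1 (adjusted p = 0.276), without TKO replicate 2 (0.0982) and without Tet1-KO TKO replicate 1 (0.234). Tet3 (log2 0.30, adjusted p = 0.15), the glycosylase gene Tdg that excises oxidised cytosines (log2 0.06, adjusted p = 0.67), the maintenance cofactor gene Uhrf1 (log2 0.01, adjusted p = 0.96) and the methyltransferase cofactor gene Dnmt3l (log2 -0.26, adjusted p = 0.14) did not pass the test. Dnmt3l was called as a fall in the fit on the 4 libraries compared (adjusted p = 0.0204) and without either wild-type library (0.0195 and 0.0198). Dppa3, which encodes a maternal factor that protects DNA from TET3-driven oxidation, rose from 35.4 and 30.4 to 81.2 and 60.0 CPM (log2 1.10 ± 0.15, adjusted p = 0.00047). Gadd45b, a stress-response gene linked to demethylation, rose from 12.2 and 6.18 to 35.5 and 21.6 CPM (log2 1.63 ± 0.29, adjusted p = 0.0028).

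Across all genes, 1876 rose (11.7% of those tested) and 1703 fell (10.6%) at an adjusted p under 0.05, which makes 3579 called (22.2%). Changes over 2-fold were more often falls: 760 genes fell (4.72%) and 530 rose (3.29%) by more than that. The median log2 change over all genes was 0.003. With scaling by library size alone the median shifted by -0.067 and the share of calls that rose went from 52.4 to 40.6%. The 2 libraries of each genotype did not overlap in CPM for 65.9% of all genes tested, so lack of overlap by itself marks little here. Without TKO replicate 1 the test called 723 rises and 788 falls, without TKO replicate 2 it called 853 and 684, without Tet1-KO TKO replicate 1 it called 1373 and 1010, and without Tet1-KO TKO replicate 2 it called 1126 and 1082. Median log2 changes by autosome ran from -0.06 on chromosome 7 to 0.06 on chromosome 1, and the X chromosome was at 0.04.

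**Figure D1:**
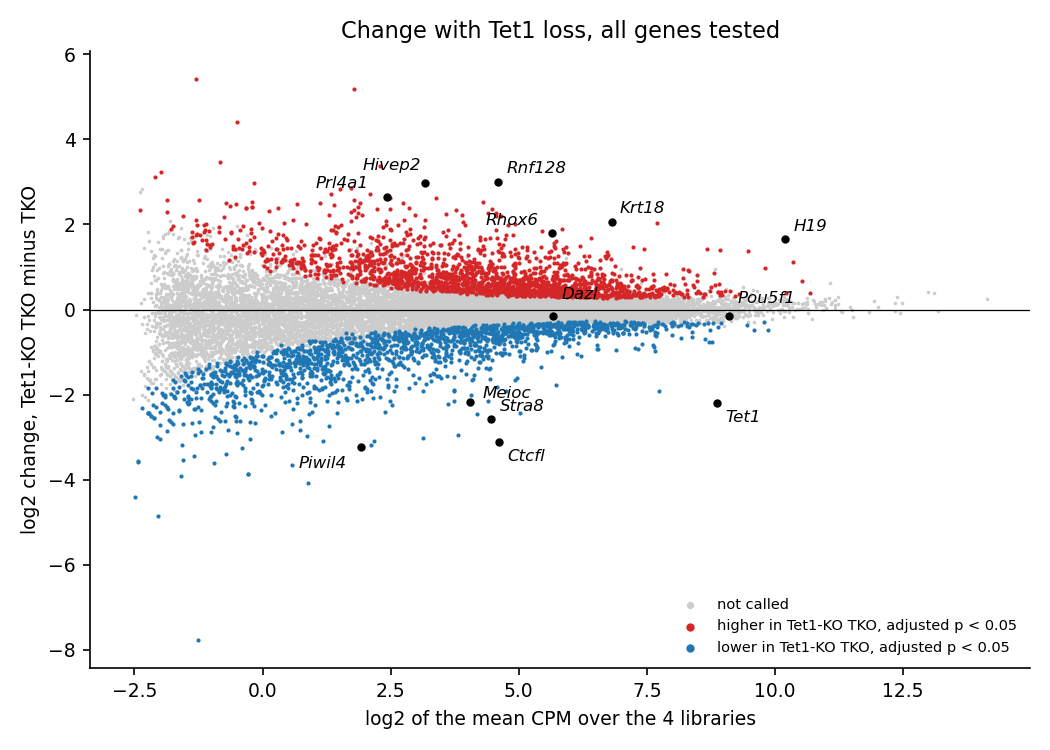
Log2 change (Tet1-KO Dnmt-TKO minus Dnmt-TKO) of each of the 16089 genes tested against the log2 of its mean CPM over the 4 libraries, with calls at an adjusted p under 0.05 in colour. Tet1 (log2 -2.19) lies far below the other genes of its abundance, Ctcfl (log2 -3.12) and Stra8 (log2 -2.57) are among the strong falls, and H19 (log2 1.65) and Krt18 (log2 2.07) among the strong rises of abundant transcripts.

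Genes of the germline fell more often than genes at large. Promoters of many such genes are methylated and silent in somatic cells and lose that silencing where methylation is missing. Of 52 tested members of a list of germline genes known for silencing by promoter methylation, 25 fell (48.1%) and 0 rose in edgeR's test, and 47 of the 52 had a lower level with Tet1 loss. At an unadjusted p under 0.05 the numbers were 30 and 2, and DESeq2 called 20 falls and 1 rise. The median log2 change of the list was -0.54, beside 0.003 for all genes. Summed over the list, levels were 2230 and 2340 CPM in Dnmt-TKO and 2100 and 2190 CPM with Tet1 loss. Without one library of the groups compared the falls numbered between 16 (without TKO replicate 1) and 19.

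Ctcfl, which encodes the testis paralogue of the chromatin architect CTCF and belongs to none of the lists, was among the 15 largest falls by the naming rule. It stood at 44.7 and 42.8 CPM in Dnmt-TKO and at 4.81 and 5.23 CPM with Tet1 loss, 8.70-fold lower (log2 -3.12 ± 0.13, adjusted p = 7.3e-07). Both Tet1-KO Dnmt-TKO libraries remained above the wild type, which had 1.24 and 1.29 CPM. An antisense gene, Ctcflos, overlaps it.

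Meiotic genes, many of them also in the preceding list, fell over a wide range of sizes. Of 37 tested genes of meiotic entry, the chromosome axis and recombination, 11 fell (29.7%) and 1 rose (2.70%), with a median log2 change of -0.41. Stra8, the retinoic acid target that commits germ cells to meiosis, stood at 44.4 and 31.2 CPM in Dnmt-TKO and at 7.51 and 5.25 CPM with Tet1 loss (log2 -2.57 ± 0.21, adjusted p = 1.9e-05). Meioc, whose product stabilises the meiotic programme, went from 27.9 and 26.6 to 6.71 and 5.30 CPM (log2 -2.18 ± 0.18, adjusted p = 1.9e-05). Both genes were also transcribed in wild-type cells, Stra8 at 54.6 and 68.6 CPM and Meioc at 20.6 and 28.8 CPM. Their Tet1-KO Dnmt-TKO libraries thus lay below the wild type as well as below Dnmt-TKO.

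Several structural genes of meiotic chromosomes fell. Smc1b, the meiotic cohesin subunit, fell from 41.4 and 51.5 to 13 and 16.5 CPM (log2 -1.65 ± 0.15, adjusted p = 3.9e-05), with 6.84 and 6.92 CPM in wild type. Syce1, a central element protein of the synaptonemal complex, fell from 27.9 and 31.7 to 11.4 and 11.4 CPM (log2 -1.38 ± 0.14, adjusted p = 7.1e-05). Stag3 and Rec8, cohesin subunits named after their values were seen, fell by 0.87 and 0.71 on the log2 scale (adjusted p = 0.00024 and 0.0029). Hormad1, an axis protein gene, had a log2 change of -0.70 ± 0.20 (adjusted p = 0.027), which was lost with DESeq2 (adjusted p = 0.162), without TKO replicate 2 (0.166) and without either Tet1-KO TKO replicate (0.141 and 0.0593). The 1 member that rose was Trip13, a remodelling ATPase gene also used in mitosis (log2 0.29, adjusted p = 0.045), and no fit that left out a compared library called it (adjusted p from 0.127 to 0.348).

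The piRNA pathway, which silences transposons in germ cells through small RNAs bound by PIWI proteins, followed the same direction in most called members. Of 30 tested genes 12 fell (40%) and 2 rose (6.67%), with a median log2 change of -0.42. Piwil4, the PIWI protein that guides nuclear silencing, was 9.34-fold lower, at 7.34 and 6.30 CPM in Dnmt-TKO and 0.748 and 0.708 CPM with Tet1 loss (log2 -3.22 ± 0.21, adjusted p = 5.6e-06). Wild-type cells had more Piwil4 than either, at 13.5 and 15.2 CPM, and the gene Gm10706 overlaps it on the other strand. Mov10l1, a helicase of piRNA production, fell from 31.2 and 30.9 to 14.9 and 12.3 CPM (log2 -1.19 ± 0.13, adjusted p = 0.00011). Piwil2 fell from 47.2 and 51.8 to 24.5 and 26.9 CPM (log2 -0.95 ± 0.11, adjusted p = 0.00023).

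Smaller falls were seen in 3 further genes of the pathway. Tdrd12 went from 88.2 and 89.4 to 56.6 and 56.0 CPM (log2 -0.66, adjusted p = 0.0007). The germ cell helicase gene Ddx4 went from 27.8 and 27.8 to 16.3 and 17.6 CPM (log2 -0.72, adjusted p = 0.0023). Fkbp6, a co-chaperone gene, went from 30.1 and 28.9 to 19 and 16.9 CPM (log2 -0.71, adjusted p = 0.0035). In none of these genes did the libraries of the 2 genotypes overlap, which also held for 65.9% of all genes tested and 3576 of the 3579 called. The 2 rises, Tdrd5 (log2 0.67, adjusted p = 0.027) and Mybl1 (log2 0.35, adjusted p = 0.042), were both lost without TKO replicate 1 (adjusted p = 0.151 and 0.14), without TKO replicate 2 (0.147 and 0.278) and without Tet1-KO TKO replicate 1 (0.117 and 0.105).

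Not every germline gene went with them. Dazl, whose RNA-binding product licenses germ cells for gametogenesis, stood at 55.8 and 50.8 CPM in Dnmt-TKO and at 48.3 and 47.7 CPM with Tet1 loss (log2 -0.15 ± 0.10, adjusted p = 0.31). Sycp1 (log2 -0.33, adjusted p = 0.14), Sycp3 (log2 -0.66, adjusted p = 0.1), Tex101 (log2 -0.74, adjusted p = 0.12), Slc25a31 (log2 -0.27, adjusted p = 0.35), Taf7l (log2 -0.46, adjusted p = 0.15), Brdt (log2 -0.20, adjusted p = 0.72) and Stk31 (log2 -0.12, adjusted p = 0.58) did not pass the test either. Sycp3 was called as a fall with a replicate block (adjusted p = 0.046), and Tex101 with no filter (0.0323), on the 4 libraries compared (0.0307) and without either wild-type library (0.0341 and 0.0355). All 8 had negative estimates, so these misses do not show that the genes were unaffected. Mael, another piRNA gene, sat at the threshold with 14 and 14.9 against 10.5 and 10.9 CPM (log2 -0.43 ± 0.14, adjusted p = 0.0501), and passed it without either wild-type library (adjusted p = 0.0266 and 0.0291) and with a replicate block (0.022). Rpl10l, a testis copy of a ribosomal protein gene, fell from 46.6 and 45.9 to 23.3 and 20.7 CPM (log2 -1.07 ± 0.11, adjusted p = 9e-05).

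**Figure D2:**
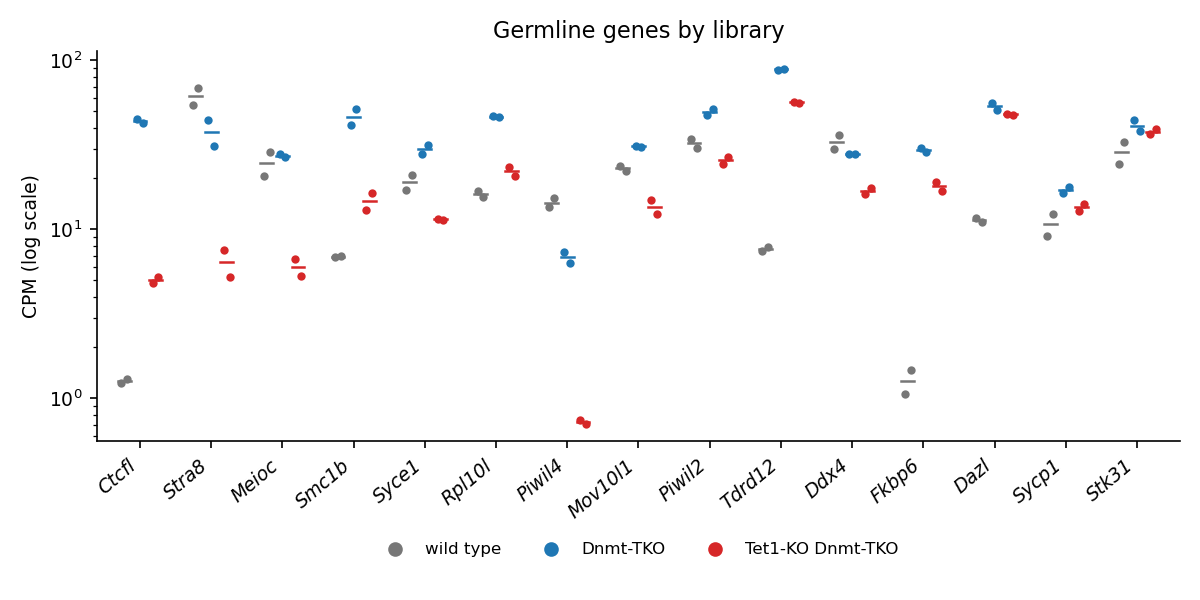
Level in CPM (log axis) of Ctcfl and 14 genes of the germline lists in each library, as points, with a bar at the mean of the 2 libraries of wild type (grey), Dnmt-TKO (blue) and Tet1-KO Dnmt-TKO (red). For Ctcfl through Sycp1 both red points lie below both blue points, and for Stk31 the red and blue points overlap. Dazl, Sycp1 and Stk31, on the right, did not pass the test.

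Promoter sequence is shown for 4 of these genes, to set genes that fell beside Dazl. Stra8, Meioc and Smc1b were chosen as strong falls and Dazl as a gene that did not pass the test. Each run is a RefSeq window (build GRCm38.p6) of 300 bases, most of them before the annotated start, matched by symbol since the counts were made on mm9, 5′ to 3′ on the gene's strand, with CpG dinucleotides, the sites where DNA is methylated, in capitals. The Stra8 window lies at chr6:34920698-34920997 on the plus strand, that of Meioc at chr11:102665335-102665634 on the plus strand, that of Smc1b at chr15:85131908-85132207 on the minus strand and that of Dazl at chr17:50293571-50293870 on the minus strand.
Stra8: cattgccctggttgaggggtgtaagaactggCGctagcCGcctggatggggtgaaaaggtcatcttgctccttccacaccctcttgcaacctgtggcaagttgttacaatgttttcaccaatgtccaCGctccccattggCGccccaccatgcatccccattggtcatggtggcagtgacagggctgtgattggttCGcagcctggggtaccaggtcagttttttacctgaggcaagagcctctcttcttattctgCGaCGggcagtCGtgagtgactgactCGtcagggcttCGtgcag
Meioc: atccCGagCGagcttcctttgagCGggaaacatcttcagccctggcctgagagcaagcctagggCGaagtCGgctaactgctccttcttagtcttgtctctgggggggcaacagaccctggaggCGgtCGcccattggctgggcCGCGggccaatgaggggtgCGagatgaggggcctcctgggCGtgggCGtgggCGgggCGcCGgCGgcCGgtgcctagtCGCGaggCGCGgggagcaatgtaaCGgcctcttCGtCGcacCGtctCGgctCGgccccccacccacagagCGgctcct
Smc1b: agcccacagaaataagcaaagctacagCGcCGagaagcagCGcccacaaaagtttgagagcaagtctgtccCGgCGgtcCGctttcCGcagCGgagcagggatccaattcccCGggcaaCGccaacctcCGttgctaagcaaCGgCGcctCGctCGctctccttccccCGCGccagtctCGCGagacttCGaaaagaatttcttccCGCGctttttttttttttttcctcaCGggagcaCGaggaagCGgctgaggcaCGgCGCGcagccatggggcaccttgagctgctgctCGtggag
Dazl: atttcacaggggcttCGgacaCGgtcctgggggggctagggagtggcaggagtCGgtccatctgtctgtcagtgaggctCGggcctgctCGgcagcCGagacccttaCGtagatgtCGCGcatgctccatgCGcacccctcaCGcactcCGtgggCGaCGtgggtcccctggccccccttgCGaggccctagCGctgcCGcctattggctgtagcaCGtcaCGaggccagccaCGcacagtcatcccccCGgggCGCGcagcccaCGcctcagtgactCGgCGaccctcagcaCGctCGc
Stra8 holds 10 CpG dinucleotides in its window, and Meioc, Smc1b and Dazl hold 28, 29 and 28. Dazl and Smc1b, with like counts, had log2 changes of -0.15 and -1.65, and Stra8, with the fewest of the 4, fell the most. The 4 genes were chosen by their change, so a relation of CpG count to change was not tested on them.

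Over all genes, a window was found by symbol for 11528 of the 16089 tested (71.7%). Where a gene had several windows, its CpG count was the largest among them, and a motif in any of them was counted. The median CpG count was 21 for all 11528 genes, 23 for genes that rose and 17 for genes that fell. It was 16 and 10 for rises and falls over 2-fold. In the list of germline genes silenced by promoter methylation, members that fell had a median of 20 and members not called a median of 16. The letters CACGTG, the E-box read by MAX and its partners, were found for 37.8% of that list's genes with a window. They were found for 11.4% of all genes with one. GGCGGGAA, a motif of the E2F family searched on both strands, was found for 15.6 and 4.57%. Among the list's falls 42.9% of genes with a window held CACGTG, and among its members not called 33.3% did. These matches describe letters and were given no test.

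Germline families on the X chromosome also fell for the most part, but some members went the other way. Of 44 tested members, 24 fell (54.5%) and 4 rose (9.09%), and the median log2 change was -0.75. Summed levels were 445 and 416 CPM in Dnmt-TKO and 419 and 417 CPM with Tet1 loss. Many members are near-identical copies that may share reads, so values of single copies are uncertain. The falls numbered 12 without TKO replicate 1, 15 without TKO replicate 2, 16 without Tet1-KO TKO replicate 1 and 14 without Tet1-KO TKO replicate 2, and the rises kept to 4 or 5.

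The Xlr genes, lymphocyte- and testis-expressed relatives of a synaptonemal complex protein, were nearly uniform. Of 10 tested members 8 fell (80%) and 0 rose, beside 10.6 and 11.7% over all genes. At an unadjusted p under 0.05 the numbers were 9 and 1, and with DESeq2 7 and 0. The median log2 change was -0.91. Xlr3c stood at 36.1 and 33.2 CPM in Dnmt-TKO, at 8.79 and 6.84 CPM with Tet1 loss and at 0.213 and 0.714 CPM in wild type (log2 -2.15 ± 0.20, adjusted p = 4.8e-05). Xlr5c fell from 8.31 and 7.40 to 1.02 and 0.708 CPM (log2 -3.19 ± 0.26, adjusted p = 3.9e-05) and its exons overlap those of Xlr5a. Nxf3, a germline relative of the mRNA export factor NXF1, fell from 24.6 and 27.4 to 8.21 and 8.43 CPM (log2 -1.64 ± 0.14, adjusted p = 2.9e-05).

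The 4 rises were Rhox6, Rhox9, Fthl17a and Nxf7. Rhox6 and Rhox9, which the trophoblast list also holds, are homeobox genes of the reproductive tract and the placenta and went from 23.5 and 21.1 to 78.3 and 77.2 CPM and from 15.1 and 11.8 to 48.4 and 42.9 CPM (log2 1.80 ± 0.12 and 1.76 ± 0.14, adjusted p = 5.6e-06 and 1.9e-05). Among 13 tested Rhox genes 6 fell and only these 2 rose, and the falls came to 1 without TKO replicate 1 and to 3 with DESeq2, while the 2 rises were called in every fit. In the main fit the Rhox shares were 46.2% for falls and 15.4% for rises, beside 10.6 and 11.7% over all genes. Nxf7 rose from 10.2 and 12.6 to 29.7 and 42.9 CPM (log2 1.67 ± 0.25, adjusted p = 0.00099). Fthl17a, a ferritin-like gene, rose from 1.19 and 1.38 to 4.95 and 6.69 CPM (log2 2.18 ± 0.30, adjusted p = 0.00055).

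Genes of the 2-cell stage, which embryonic stem cells switch on in rare cells that resemble the early embryo, fell in most tested members. Of 37 tested, 21 fell (56.8%) and 2 rose (5.41%), with a median log2 change of -1.31. Summed over the list, levels were about alike, at 1750 and 1610 CPM in Dnmt-TKO and 1730 and 1690 CPM with Tet1 loss. The falls came to 12 without TKO replicate 1, 11 without TKO replicate 2, 18 without Tet1-KO TKO replicate 1 and 11 without Tet1-KO TKO replicate 2, and DESeq2 called 13. In bulk libraries fewer cells of such a kind and less RNA in each of them cannot be told apart. Zscan4d, of a family of telomere regulators, stood at 11.9 and 17.9 CPM in Dnmt-TKO and 6.36 and 4.27 CPM with Tet1 loss (log2 -1.48 ± 0.26, adjusted p = 0.0024). Zscan4c went from 8.17 and 10.7 to 4.14 and 3.44 CPM (log2 -1.31, adjusted p = 0.0015). Zscan4f, a further near-identical copy, went from 4.93 and 9.39 to 1.71 and 1.69 CPM (log2 -2.07, adjusted p = 0.0011). All of these remained above the wild type, where no Zscan4 copy passed 1.38 CPM. Tmem92, also a gene of this stage, fell from a mean of 20.1 ± 1.3 (SD) to 4.33 ± 1.36 CPM over 2 libraries each (log2 -2.22 ± 0.20, adjusted p = 3.9e-05). Usp17le, a member of a deubiquitinase family with many copies, fell from 5.19 and 7.20 to 2.38 and 2.10 CPM (log2 -1.47 ± 0.23, adjusted p = 0.0014). The 2 rises were Gata2 (log2 0.91, adjusted p = 0.0016), which is also a trophoblast gene, and Btg2 (log2 0.45, adjusted p = 0.046), which no fit without a compared library called (adjusted p from 0.113 to 0.244).

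Trophoblast genes moved the opposite way. The trophoblast is the outer lineage of the embryo that forms the placenta, and methylation of a few regulators helps to keep embryonic stem cells from entering it. Of 43 tested markers 32 rose (74.4%) and 0 fell in edgeR's test, 40 had a higher level with Tet1 loss, and the median log2 change was 1.28. At an unadjusted p under 0.05 the numbers were 36 and 1, and DESeq2 called 29 and 0. Without one compared library the rises numbered between 24 and 31. Summed over the list, levels were 1230 and 1180 CPM in Dnmt-TKO, 2350 and 3050 CPM with Tet1 loss, and 572 and 564 CPM in wild type.

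Epithelial keratins, the intermediate filaments of simple epithelia, rose about alike. Krt18 stood at 41.3 and 45.3 CPM in Dnmt-TKO and at 160 and 203 CPM with Tet1 loss (log2 2.07 ± 0.13, adjusted p = 4.7e-06). Its partner Krt8 rose from 77.4 and 86.2 to 277 and 389 CPM (log2 2.03 ± 0.15, adjusted p = 1.3e-05) and is overlapped by Gm36026. Krt7 and Krt19, named after their values were seen, rose by 2.19 and 1.84 on the log2 scale (adjusted p = 3e-05 and 6.5e-05), and Gm671 overlaps Krt7. Dnmt-TKO libraries of the separate experiment, with the vehicle DMSO, held more of these keratins than the Tet1-KO Dnmt-TKO libraries here. Krt18 stood there at 260 and 246 CPM, Krt8 at 472 and 450, Krt7 at 63.3 and 62.5 and Krt19 at 110 and 95.3. Why Dnmt-TKO levels differed between the experiments was not tested.

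Regulators of the lineage rose less evenly. Eomes, a T-box factor of trophoblast stem cells and mesendoderm, went from 3.71 and 2.70 to 10.5 and 11.3 CPM (log2 1.76 ± 0.19, adjusted p = 0.00011), with 5.0 and 5.36 CPM in wild type, and Gm33460 overlaps it. Hand1, a factor of giant cell differentiation, went from 6.35 and 5.18 to 13.5 and 19.6 CPM (log2 1.52 ± 0.20, adjusted p = 0.00047). Tfap2c went from 66.2 and 54.2 to 123 and 109 CPM (log2 0.95 ± 0.12, adjusted p = 0.00031). These 3 genes, like the keratins, had no overlap between the libraries of the groups compared. Such a gap was a condition for naming list members, and 65.9% of all genes tested had it. In the vehicle-treated Dnmt-TKO libraries Hand1 was at 40.5 and 46.6 CPM, Tfap2c at 100 and 98.6 CPM and Eomes at 3.40 and 3.52 CPM. Of these, Hand1 alone lay above its levels with Tet1 loss.

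The ligand gene Wnt7b rose from 12.2 and 10 to 49.5 and 38.6 CPM (log2 1.98 ± 0.16, adjusted p = 1.9e-05), with AU022754 overlapping it. Tead4 and Plac1, named after their values were seen, rose by 1.12 and 2.10 on the log2 scale (adjusted p = 0.00078 and 9.7e-05). Tead4 went from 11.6 and 9.55 to 20.6 and 25.5 CPM, and thus remained below the 62.2 and 48.0 CPM of wild type. Plac1 went from 4.03 and 2.73 to 14.6 and 14.6 CPM. In the vehicle-treated Dnmt-TKO libraries Plac1 was at 21.7 and 20.3 CPM and Wnt7b at 15.9 and 16.4 CPM. Defining regulators of trophoblast stem cells remained low. Elf5, a gatekeeper of the lineage, stood at 0.482 and 0.289 CPM in Dnmt-TKO and at 0.722 and 1.42 CPM with Tet1 loss (log2 1.45 ± 0.47, adjusted p = 0.046). That call was lost with DESeq2 (adjusted p = 0.176), without either TKO replicate (0.105 and 0.265) and without Tet1-KO TKO replicate 2 (log2 0.88, adjusted p = 0.303). Cdx2, the factor that specifies trophectoderm, had 1.19 and 1.32 against 1.5 and 2.71 CPM (log2 0.75 ± 0.34, adjusted p = 0.13), and was called without Tet1-KO TKO replicate 1 (adjusted p = 0.0447).

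Placental gene clusters rose too, more in one library than in the other. This grouping of prolactin-like, Psg, Ceacam, Serpinb9 and cathepsin genes was made after values had been seen, and its copies may share reads. Of 58 genes in the grouping 24 were tested, and 10 had no count in any of the 6 untreated libraries. Of the 24 tested members 19 rose (79.2%) and 0 fell, beside 11.7 and 10.6% over all genes. At an unadjusted p under 0.05 the numbers were 21 and 1, and with DESeq2 14 and 0. The median log2 change was 2.39. Summed levels were 64.1 and 65.9 CPM in Dnmt-TKO, but 105 CPM in Tet1-KO TKO replicate 1 and 248 CPM in replicate 2. Without the latter library 11 members rose, without Tet1-KO TKO replicate 1 21 did, without TKO replicate 1 12 did and without TKO replicate 2 14 did. Serpinb9e, a protease inhibitor gene of the placenta, had 5.19 and 6.46 CPM in Dnmt-TKO and 14.5 and 52.4 CPM with Tet1 loss (log2 2.53 ± 0.44, adjusted p = 0.0024). Prl4a1, of the prolactin family, had 1.36 and 1.58 CPM against 5.80 and 12.7 CPM (log2 2.66 ± 0.35, adjusted p = 0.00066) and was at 0 in both wild-type libraries. Serpinb9c, Serpinb9f and Prl2a1 had like gaps between the libraries with Tet1 loss (2.49 and 6.30, 2.94 and 8.62, and 2.33 and 7.69 CPM), all above Dnmt-TKO (log2 2.73, 2.85 and 2.84, adjusted p = 0.0015, 0.0016 and 0.0041). Prl2c5, at 1.28 and 1.87 against 3.74 and 15.6 CPM (log2 2.63, adjusted p = 0.0069), was not called by DESeq2 (adjusted p = 0.0627).

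Beside the windows of the germline genes, that of Prl4a1 (RefSeq, GRCm38.p6, chr13:28015962-28016261, plus strand, CpG in capitals) holds 2 CpG dinucleotides.
Prl4a1: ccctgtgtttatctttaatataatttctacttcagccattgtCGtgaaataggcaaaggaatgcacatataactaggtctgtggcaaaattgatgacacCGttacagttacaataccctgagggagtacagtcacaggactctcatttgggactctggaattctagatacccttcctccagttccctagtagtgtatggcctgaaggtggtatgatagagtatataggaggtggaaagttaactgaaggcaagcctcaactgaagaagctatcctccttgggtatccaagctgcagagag
For the 20 placental cluster genes that have a window the median was 2 CpG, and 0% of these genes hold CACGTG there.

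**Figure D3:**
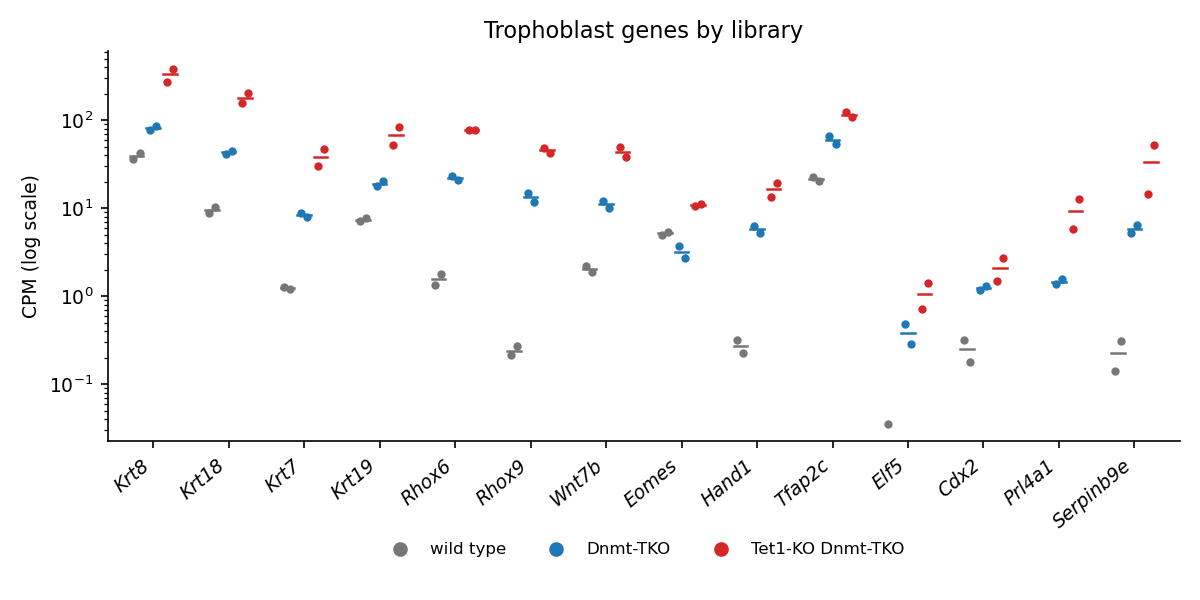
Level in CPM (log axis) of 14 trophoblast genes in each library, as points, with a bar at the mean of the 2 libraries of wild type (grey), Dnmt-TKO (blue) and Tet1-KO Dnmt-TKO (red). Libraries at 0 are not drawn. Both red points lie above both blue points for every gene shown, although Cdx2 did not pass the test, and Serpinb9e and Prl4a1 show the gap between the red libraries.

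Markers of other lineages gave weaker and mixed counts. Of 33 tested markers of primitive and definitive endoderm 11 rose (33.3%) and 2 fell (6.06%), with a median log2 change of 0.91. In both genotypes replicate 2 was the higher: the list summed to 2070 and 2810 CPM in Dnmt-TKO and to 3100 and 5640 CPM with Tet1 loss, beside 2880 and 3610 CPM in wild type. Rises numbered 2 without TKO replicate 1, 2 without Tet1-KO TKO replicate 2, 22 without Tet1-KO TKO replicate 1 and 22 with a replicate block. Col4a1, a basement membrane collagen gene, had 150 and 296 CPM against 365 and 818 CPM (log2 1.41 ± 0.35, adjusted p = 0.014). It shares exon sequence with Col4a2 on the other strand and was not called with DESeq2 (adjusted p = 0.0947). Its log2 change was 1.00 without TKO replicate 1 and 0.715 without Tet1-KO TKO replicate 2, and neither of these fits called it. Sox17, an endoderm transcription factor gene overlapped by Gm37587, had 4.03 and 7.11 against 10.3 and 18 CPM (log2 1.35 ± 0.32, adjusted p = 0.012), and was not called without TKO replicate 1 (adjusted p = 0.0967), without Tet1-KO TKO replicate 2 (0.105) or with DESeq2 (0.0647). Foxa3, a forkhead factor gene of liver and gut, fell from 2.98 and 2.89 to 1.04 and 0.928 CPM (log2 -1.57 ± 0.26, adjusted p = 0.0018). Sparc, a matrix protein gene, rose from 189 and 253 to 336 and 494 CPM (log2 0.91 ± 0.17, adjusted p = 0.0037).

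Neural ectoderm markers were lower more often than higher: of 29 tested, 10 fell (34.5%) and 5 rose (17.2%), with a median log2 change of -0.24. The test called 5 falls and 3 rises without TKO replicate 1, without TKO replicate 2 it called 7 and 2, without Tet1-KO TKO replicate 1 it called 8 and 3, and without Tet1-KO TKO replicate 2 it called 7 and 3. Pax6, the eye and forebrain factor, went from 42.2 and 43.3 to 12.6 and 9.96 CPM (log2 -1.92 ± 0.19, adjusted p = 7.1e-05), far above the 0.709 and 0.179 CPM of wild type. Stmn2, a neuronal microtubule regulator, fell from 259 and 259 to 142 and 137 CPM (log2 -0.89 ± 0.09, adjusted p = 8.4e-05). Neurod1, a neuronal bHLH factor gene whose exons overlap Cerkl and Gm26755, fell from 7.83 and 8.56 to 2.25 and 3.0 CPM (log2 -1.64 ± 0.22, adjusted p = 0.00055). Nefl, a neurofilament gene, rose from 13.6 and 16.5 to 34.2 and 37.2 CPM (log2 1.25 ± 0.19, adjusted p = 0.001), and overlaps Nefm. Of 36 mesoderm markers 6 rose (16.7%) and 8 fell (22.2%). Of 26 fibroblast and feeder markers 4 rose (15.4%) and 9 fell (34.6%), beside 11.7 and 10.6% over all genes. Leaving out TKO replicate 1 brought these counts to 3 and 5 and to 2 and 7, leaving out TKO replicate 2 to 4 and 4 in both lists, and leaving out either Tet1-KO TKO replicate gave 5 falls of mesoderm markers. Fstl1, a secreted glycoprotein gene, and Thy1, a surface antigen gene, were among the fibroblast falls (log2 -0.99 and -1.60, adjusted p = 6.5e-05 and 0.00087). Fibroblast markers summed to 827 and 895 CPM in Dnmt-TKO and 735 and 807 CPM with Tet1 loss, and mesoderm markers to 253 and 257 against 271 and 276 CPM. The part of other cell types in the differences was not tested.

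Several core markers of the stem cell state did not pass the test. They were abundant in every library: Pou5f1, the OCT4 gene, had 568 and 585 CPM in Dnmt-TKO and 536 and 504 CPM with Tet1 loss (log2 -0.15 ± 0.09, adjusted p = 0.28). Sox2 (log2 -0.11, adjusted p = 0.45), Nanog (log2 0.11, adjusted p = 0.55), Klf4 (log2 0.07, adjusted p = 0.83), Esrrb (log2 -0.08, adjusted p = 0.63) and Zfp42 (log2 -0.18, adjusted p = 0.26) did not pass the test. Other genes of the list did. Dppa5a rose from 1072 and 1220 to 1793 and 1838 CPM (log2 0.66, adjusted p = 0.0085), and Utf1 also rose (log2 0.57, adjusted p = 0.0066). Lin28a, which Gm13061 overlaps, and Jam2 fell (log2 -0.64 and -0.58, adjusted p = 0.0023 and 0.0014). Of 47 pluripotency genes 5 rose (10.6%) and 8 fell (17.0%), with a median of -0.08. Those shares are near the 11.7 and 10.6% of all genes, and without TKO replicate 1, TKO replicate 2, Tet1-KO TKO replicate 1 and Tet1-KO TKO replicate 2 in turn 2, 2, 4 and 4 rose and 3, 3, 3 and 5 fell.

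Nodal and its antagonists are often read as output of TGF-beta signalling in these cells. Nodal (log2 -0.18, adjusted p = 0.29) and Lefty2 (log2 -0.17, adjusted p = 0.48) did not pass the test. Lefty1 stood at 156 and 263 CPM in Dnmt-TKO and at 91.0 and 130 CPM with Tet1 loss (log2 -0.92 ± 0.23, adjusted p = 0.015), with a wide gap between the Dnmt-TKO libraries. Its call was lost without TKO replicate 2 (log2 -0.49, adjusted p = 0.17), without Tet1-KO TKO replicate 1 (adjusted p = 0.11) and with DESeq2 (adjusted p = 0.0904). Over the list of 35 genes, 10 rose and 3 fell, against 3 and 2 without TKO replicate 1, 5 and 1 without TKO replicate 2, and 9 and 1 without Tet1-KO TKO replicate 1. In the main fit the shares were 28.6% for rises and 8.57% for falls, beside 11.7 and 10.6% over all genes. Tgfb1, a ligand gene, fell from 11.4 and 9.81 to 4.68 and 4.91 CPM (log2 -1.15 ± 0.16, adjusted p = 0.00065).

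Imprinted genes, whose expression depends on parental methylation marks, went both ways. Of 55 tested 8 rose (14.5%) and 9 fell (16.4%), with a median of -0.01, beside shares of 11.7 and 10.6% over all genes. The counts were 3 and 4 without TKO replicate 1, without TKO replicate 2 they were 6 and 2, and without either Tet1-KO TKO replicate they were 5 and 6. With a replicate block 14 fell. H19, a maternally expressed noncoding RNA, was among the most abundant transcripts that rose, from 549 and 589 to 1767 and 1813 CPM (log2 1.65 ± 0.10, adjusted p = 4.6e-06). Wild-type cells had 1.24 and 1.07 CPM of it, and the vehicle-treated Dnmt-TKO libraries of the separate experiment had 1428 and 1367 CPM. Mir675, Gm27483 and Gm27786 lie within the span of H19. Its neighbour Igf2, which Igf2os and Gm49394 overlap, had 7.85 and 8.01 against 5.75 and 5.08 CPM (log2 -0.55 ± 0.19, adjusted p = 0.059) and was called as a fall without either wild-type library (adjusted p = 0.0263 and 0.0287) and with a replicate block (0.0324).

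The placental imprinted genes Sfmbt2 and Peg10, the latter also in the trophoblast list, rose. Sfmbt2, a polycomb-related gene needed in trophoblast, went from 59.7 and 59.7 to 130 and 175 CPM (log2 1.35 ± 0.13, adjusted p = 6.1e-05). Peg10, a retrotransposon-derived gene of the placenta, went from 616 and 594 to 964 and 1398 CPM (log2 0.96 ± 0.15, adjusted p = 0.0011). The vehicle-treated Dnmt-TKO libraries had 169 and 163 CPM of Sfmbt2 and 1639 and 1589 CPM of Peg10. Peg3, at 199 and 209 against 216 and 262 CPM, did not pass the test (log2 0.23, adjusted p = 0.15). Magel2 fell from 3.32 and 4.34 to 0.882 and 1.44 CPM (log2 -1.71 ± 0.33, adjusted p = 0.0037).

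Lists of metabolism and stress gave more rises than falls, on counts that single libraries changed. Over all genes 11.7% rose and 10.6% fell, and the share of rises in the integrated stress response was near the former. Of 44 genes of glycolysis and hypoxia 12 rose (27.3%) and 4 fell (9.09%), but 1 rose without TKO replicate 1, 5 without TKO replicate 2 and 3 without Tet1-KO TKO replicate 2. Of 43 genes of the integrated stress response 7 rose (16.3%) and 1 fell (2.33%), with 22 at a higher and 21 at a lower level and a median of 0.02, and the rises came to 0 without TKO replicate 1 and to 2 without TKO replicate 2 or Tet1-KO TKO replicate 2. Of 34 genes of cholesterol and fatty acid synthesis 14 rose (41.2%) and 2 fell (5.88%), with a median of 0.28. Scd1, a fatty acid desaturase gene, rose from 32.2 and 38.0 to 77.7 and 99.6 CPM (log2 1.34 ± 0.13, adjusted p = 6.4e-05). The sterol enzymes Sc5d, Msmo1 and Cyp51 rose by smaller amounts (log2 0.80, 0.65 and 0.61, adjusted p = 0.0011, 0.0013 and 0.00086), and Akap9 overlaps Cyp51. Without TKO replicate 1, TKO replicate 2, Tet1-KO TKO replicate 1 and Tet1-KO TKO replicate 2 in turn, 9, 7, 11 and 7 members rose.

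Of 42 genes listed as targets of the tumour suppressor p53 12 rose (28.6%) and 0 fell, beside 11.7 and 10.6% over all genes. At an unadjusted p under 0.05 the numbers were 15 and 1, and with DESeq2 12 and 0. The median log2 change was 0.19. Leaving out the same libraries in turn gave 6, 6, 8 and 7 rises. Perp, an epithelial adhesion gene as well as a p53 target, rose from 21.2 and 22.9 to 59.5 and 53.2 CPM (log2 1.35 ± 0.11, adjusted p = 2.5e-05). Cdkn2a, a cell cycle inhibitor locus, is counted among these rises although it acts upstream of p53 and is not a target in that sense. It rose from 15 and 14.9 to 37.9 and 35.9 CPM (log2 1.30 ± 0.12, adjusted p = 4.5e-05). Phlda3 and Ak1 rose by 0.81 and 0.71 on the log2 scale (adjusted p = 0.00032 and 0.00033). Of 53 genes of the cell cycle and DNA replication 4 rose and 4 fell (7.55% each), shares below those of all genes. Without TKO replicate 1 these counts were 2 and 2, and without TKO replicate 2 or Tet1-KO TKO replicate 1 they were 2 and 1.

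Lists of chromatin repressors differed in their counts. Of 29 genes of the PRC1.6 complex and other repressors of germline genes, 2 rose (6.90%) and 4 fell (13.8%), with a median of 0.01. Of 47 polycomb genes 11 rose (23.4%) and 5 fell (10.6%), with a median of 0.07, beside the 11.7% of all genes that rose and the 10.6% that fell. Among 23 genes of TET1 partners and the OGT and SIN3A complexes, 2 rose (8.7%) and 4 fell (17.4%). These counts shrank without single libraries: for the polycomb genes to 5 and 1 without TKO replicate 1, 4 and 1 without TKO replicate 2, 8 and 2 without Tet1-KO TKO replicate 1, and 6 and 3 without Tet1-KO TKO replicate 2. Without the same libraries in turn 0, 0, 1 and 0 of the germline repressor genes rose and 1, 0, 2 and 2 fell, and 1, 1, 1 and 1 of the partner genes rose and 1, 2, 3 and 2 fell.

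**Figure D4:**
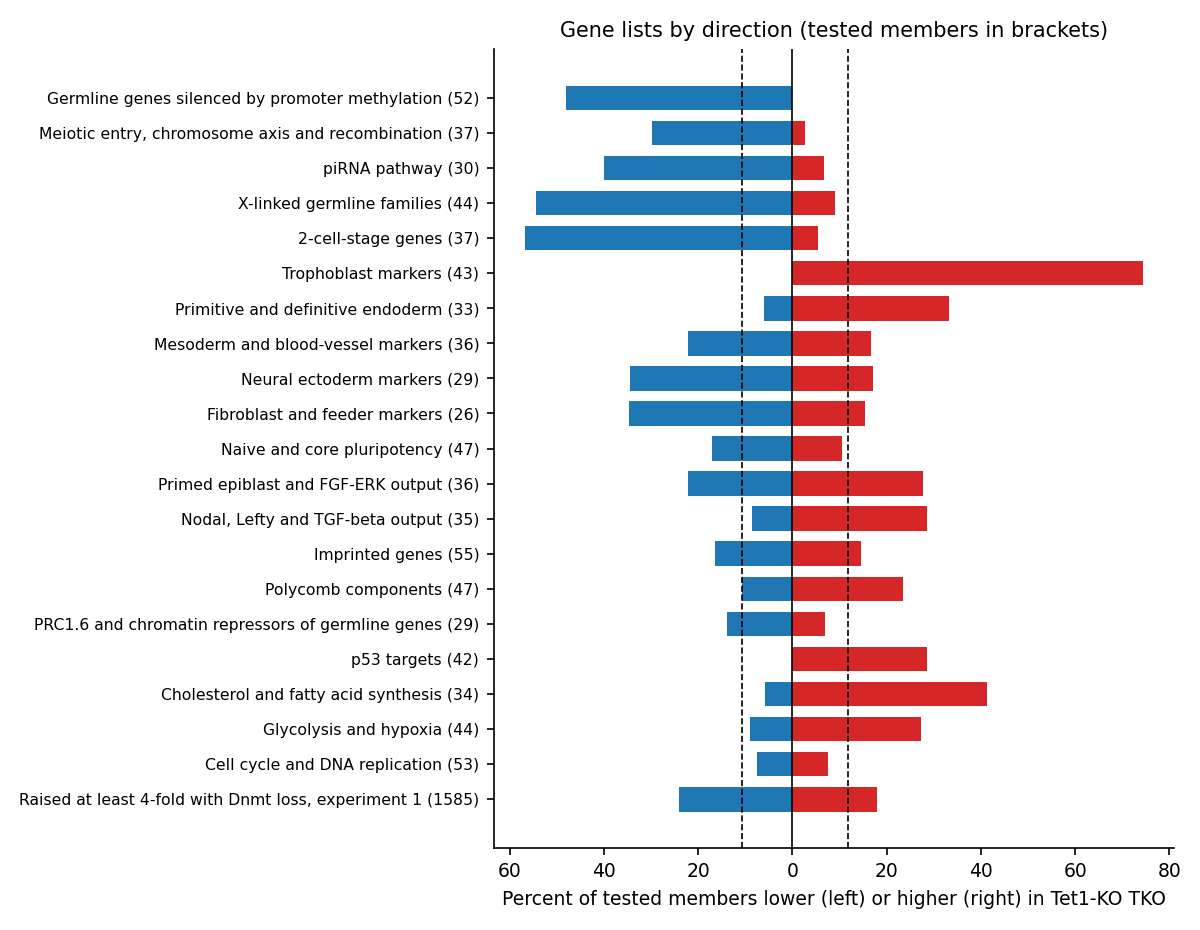
Percent of the tested members of each gene list that rose (red, to the right) or fell (blue, to the left) with Tet1 loss at an adjusted p under 0.05, with the number of tested members in brackets. Dashed lines mark the shares of all genes, 11.7% for rises and 10.6% for falls. Trophoblast markers (74.4% rose) and the germline and 2-cell-stage lists (29.7 to 56.8% fell) lie beyond them.

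To place these changes beside those of Dnmt loss, genes raised by it were taken from the other experiment of the series, which shares no library with this one. There 1827 of 16711 genes (10.9%) were at least 4-fold higher in Dnmt-TKO than in wild type, both with the vehicle DMSO. As in the untreated libraries, Y-linked reads were nearly missing from the wild type there: Kdm5d was at 0 in both wild-type libraries and at 2.15 and 3.11 CPM in Dnmt-TKO, and Usp9y at 0.0357 and 0.0311 against 3.27 and 3.62 CPM. Other differences between the lines therefore cannot be told apart from Dnmt loss, and "raised with Dnmt loss" stands here for the difference between these lines. Of the raised genes, 1585 were tested here. With Tet1 loss 382 of them fell (24.1%) and 285 rose (18%), both above the shares of all genes, and their median log2 change was -0.23. Without TKO replicate 1, TKO replicate 2, Tet1-KO TKO replicate 1 and Tet1-KO TKO replicate 2 in turn, 213, 182, 261 and 262 fell and 160, 193, 270 and 185 rose. Of the 158 on the X chromosome 43 fell (27.2%) and 36 rose (22.8%), and of the 1333 on autosomes 297 fell (22.3%) and 238 rose (17.9%). Among the 173 tested genes that were at least 4-fold lower with Dnmt loss, 32 fell (18.5%) and 24 rose (13.9%). Leaving out the same libraries in turn gave 22, 26, 30 and 28 falls and 22, 24, 33 and 25 rises on the X chromosome, 165, 134, 200 and 203 falls and 128, 160, 228 and 152 rises on autosomes, and 24, 21, 23 and 27 falls and 10, 12, 23 and 16 rises of the lowered genes.

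The germline lists split in this way as well. Of 51 members raised at least 4-fold with Dnmt loss 27 fell (52.9%) and 4 rose (7.84%), with a median of -0.71. Of 80 members not so raised 29 fell (36.2%) and 3 rose (3.75%), with a median of -0.38. Without TKO replicate 1 the falls were 15 and 20, without TKO replicate 2 they were 18 and 22, without Tet1-KO TKO replicate 1 they were 20 and 22, and without Tet1-KO TKO replicate 2 they were 16 and 23. The difference between the 2 shares was not tested. Sohlh2, a germ cell transcription factor gene named after its values were seen, belonged to those not so raised, with 38.6 and 36.3 CPM in wild type, 32.4 and 30.7 CPM in Dnmt-TKO and 16.8 and 14.4 CPM with Tet1 loss (log2 -1.02 ± 0.12, adjusted p = 0.00019).

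Among genes raised with Dnmt loss, the falls with the smallest p by the naming rule included 5 genes outside the lists. Efhc2, an X-linked gene for a ciliary protein, stood at 31.2 and 30.5 CPM in Dnmt-TKO, at 5.64 and 5.69 CPM with Tet1 loss and at 0.213 and 0.223 CPM in wild type (log2 -2.44 ± 0.13, adjusted p = 3.7e-06). Nexn, an actin-binding protein gene, fell from 21.6 and 27.9 to 3.29 and 3.08 CPM (log2 -2.96 ± 0.19, adjusted p = 5.9e-06) and shares exons with Gm43185. Aass, of lysine breakdown, fell from 78.7 and 85.7 to 26.2 and 22.3 CPM (log2 -1.76 ± 0.12, adjusted p = 6.4e-06). Capn3, a calpain protease gene overlapped by Ganc, fell from 20.6 and 21.7 to 5.59 and 5.74 CPM (log2 -1.90 ± 0.16, adjusted p = 2.9e-05). Each of these stayed above its wild-type level. Fgf1, a growth factor gene, fell from 7.54 and 8.72 to 0.882 and 1.00 CPM (log2 -3.10 ± 0.23, adjusted p = 1.4e-05), below the 1.99 and 1.56 CPM of wild type.

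Other genes were named for a rise with one of the smallest p among genes raised with Dnmt loss or, as Hivep2, for one of the 15 largest rises. Rnf128, an X-linked ubiquitin ligase gene, went from 5.87 and 4.82 to 40.3 and 46.0 CPM, 8.04-fold higher (log2 3.01 ± 0.15, adjusted p = 2.5e-06). The tight junction genes Cldn7 and Cldn4 went from 6.86 and 7.62 to 36.8 and 32.9 CPM and from 75.0 and 83.2 to 229 and 211 CPM (log2 2.27 ± 0.15 and 1.48 ± 0.11, adjusted p = 8e-06 and 9.8e-06). Mex3b, an RNA-binding protein gene, went from 8.90 and 7.14 to 43.8 and 34 CPM (log2 2.27 ± 0.16, adjusted p = 1e-05). Hivep2, a zinc finger gene, went from 1.87 and 2.19 to 13.7 and 18.2 CPM (log2 2.98 ± 0.20, adjusted p = 8.4e-06), and antisense genes overlap it.

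Further genes were named as being among the 15 largest falls. Nsg2, a neuronal vesicle gene also raised at least 4-fold with Dnmt loss, was 16.8-fold lower, with 3.03 and 3.92 CPM in Dnmt-TKO and 0.107 and 0.293 CPM with Tet1 loss (log2 -4.07 ± 0.40, adjusted p = 6.5e-05). Ccnd2, a G1 cyclin gene of the cell cycle list that 9330179D12Rik and Gm43126 overlap, fell from 62.2 and 48.3 to 7.40 and 12.9 CPM (log2 -2.44 ± 0.22, adjusted p = 3.7e-05). These values were close to the 8.51 and 7.72 CPM of wild type. Foxn4, a forkhead factor gene, fell from 4.40 and 4.18 to 0.668 and 0.611 CPM (log2 -2.74 ± 0.21, adjusted p = 1.6e-05), with 13.1 and 13.5 CPM in wild type.

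**Figure D5:**
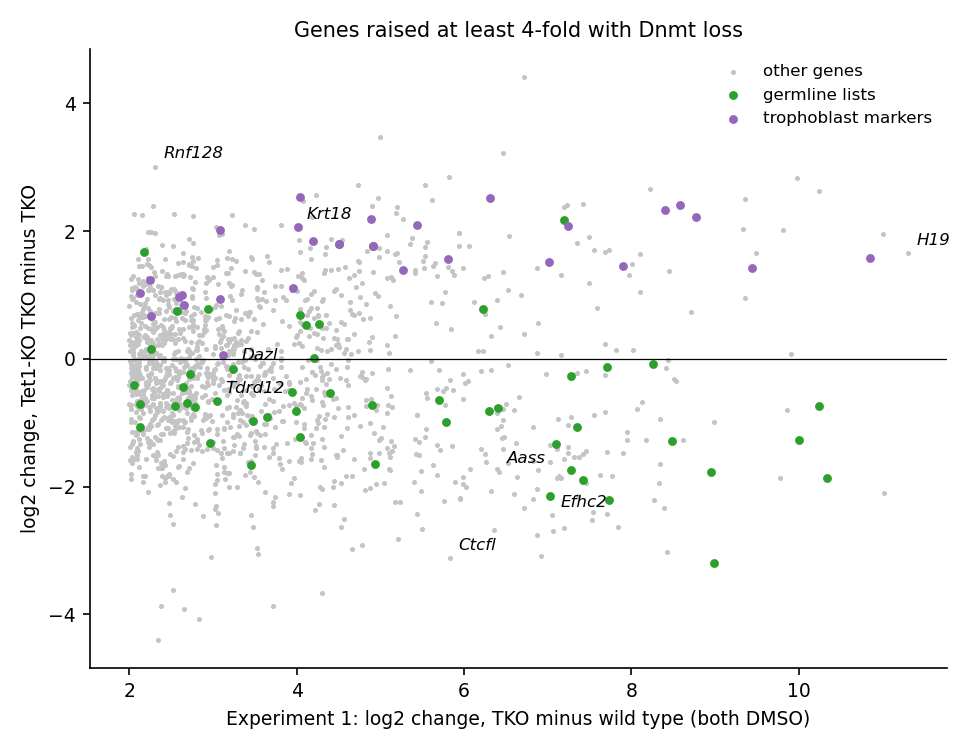
Genes raised at least 4-fold with Dnmt loss in the separate vehicle-treated experiment: log2 change there (x axis) against log2 change with Tet1 loss (y axis), one point a gene, with germline list members in green and trophoblast markers in purple (Rhox6 and Rhox9, in both lists, are purple). Most green points lie below 0 (27 of 51 fell and 4 rose), most purple points lie above it, and the remaining genes spread to both sides.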

How the data were processed

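The authors deposited whole-number read counts per Ensembl gene, one column a library. Per the submitters' processing notes the tools were Bowtie 0.12.8, TopHat2 2.0.2 and HTSeq 0.5.3p9 on mm9, with no statement of strand. Per the labels' protocols libraries were made from poly(A)-selected RNA. Symbols came from the supplied annotation by identifier (32919 of 37991 IDs matched).

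Counts of the 6 untreated libraries were fitted with edgeR 4.0.16 (R 4.3.3): filterByExpr on the 4 libraries compared (minimum count 10, minimum total 15), TMM factors, glmQLFit and glmQLFTest with 3 residual degrees of freedom, two-sided, Benjamini-Hochberg adjustment over the 16089 genes tested and a threshold of 0.05. The same test on the 8 libraries of the other experiment gave the genes raised with Dnmt loss (log2 change of at least 2). The script was tested on simulated data. SE is the log2 change divided by the root of F.

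The members, the gene lists and the rule for named genes were chosen with earlier results of these data known. Named were targeted and anchor genes, up to 4 called members with the smallest p per list and direction among those without overlap, the 15 largest changes each way (mean of at least 1 CPM), the 8 smallest p each way among genes raised with Dnmt loss, and the 5 most abundant calls each way, some left out for length. Alternatives were RLE factors, library size only, DESeq2 1.42.0, other filters, 4 libraries only, a replicate block, and leaving out each library.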

Additional observations from a re-analysis of the deposited data

How the results depend on the processing

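The counts of rises and falls stayed within 1.5 times of 1876 and 1703 under RLE factors, library size only, DESeq2, no filter, a filter of 1 CPM in 2 libraries, a filter on all 3 groups, a fit on the 4 libraries compared and the replicate block. Leaving out 1 library in turn gave between 723 and 2405 rises and between 684 and 2085 falls. With a minimum log2 change of 1 there were 530 rises and 760 falls. No gene called in the main fit had the opposite sign in any of the 14 refits. Replicate numbers are shared by the labels, but no shared culture or batch is named. Deviations of same-numbered libraries correlated at 0.249 between the groups compared, and 0.114 and 0.136 with the wild type. With a replicate block 2355 genes rose and 2150 fell, and all 3579 calls were kept. Among the named genes the block changed no call other than those of Dnmt3b, Mael, Sycp3 and Igf2. The counts of named genes given next leave out Dppa5a, Utf1, Lin28a and Jam2.

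Of 93 named genes that were called, 82 stayed called in every refit that tested them, and 11 lost the call in at least 1. Beside the settings in the report, Trip13 (adjusted p = 0.127), Mybl1 (0.11) and Btg2 (0.0889) lost it with library size only, Trip13 (0.0535) and Btg2 (0.0547) with the filter of 1 CPM, Tdrd5 (0.0582) and Mybl1 (0.0596) with DESeq2, and Mybl1 with no filter (0.0566) and without Tet1-KO TKO replicate 2 (0.128). Sign changed only in genes that were not called. Leaving out 1 library in turn moved the log2 change of Dnmt1 between -0.124 and 0.009, Uhrf1 between -0.05 and 0.075 (-0.012 without Tet1-KO TKO replicate 1), Brdt between -0.507 and 0.04 (0.037 without Tet1-KO TKO replicate 1), Nanog between -0.035 and 0.248, Klf4 between -0.35 and 0.395 (-0.084 without TKO replicate 1) and the log2 change of Lefty2 between -0.405 and 0.112. Uhrf1 was at -0.056 with library size only and at -0.008 with the filter of 1 CPM, and Tdg at -0.002 with library size only. Of 1034 list counts under alternatives 244 moved by over 1.5 times, many of them counts of few genes. Depth and 2 libraries a group limit the precision most for genes near 1 CPM, such as Elf5 (SE 0.47).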
